A study of Rattus norvegicus with 2 samples.

Results

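The Id proteins and their companions in the bone morphogenetic protein (BMP) response were followed across the epithelium of the rat proximal jejunum. The set held 8 of the 32883 genes listed in the count matrices, and each was taken by its symbol, which named a single gene in both libraries. Id1, Id2, Id3 and Id4 encode inhibitors of DNA binding, Smad6 and Smad7 encode inhibitory Smads, Bmpr1a encodes a type I BMP receptor and Bambi encodes a membrane pseudoreceptor that blocks signaling. The cells came from 2 male Sprague Dawley rats aged 6 to 8 weeks and weighing 180 to 200 g, with 1 library per rat. Both animals were fasted overnight, and the labels put them in 1 group with no genotype or treatment named, so cell types are what is compared, each rat serving as a replicate (n = 2). The epithelium was shaken off the jejunum in EDTA and dissociated with dispase, so the mesenchyme beneath it, a known source of BMP ligands and antagonists, was left behind.

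BMP ligands bind paired type I and type II receptors, which phosphorylate Smad1, Smad5 and Smad9, and these enter the nucleus with Smad4. Id genes are classic direct targets of that complex, and Id proteins bind E proteins such as Tcf3, Tcf4 and Tcf12 in dimers that cannot bind DNA, which withholds them from tissue-specific bHLH factors such as Atoh1. Smad6, Smad7 and Bambi are induced by the pathway and act against it. In the intestine BMP activity is known to increase from the crypt towards the villus tip and to restrain stem cells.

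The members with a difference that passed the test described below were Id4, Smad7 and Bambi, and the 250 bases before their transcription starts are shown because Smads bind GC-rich elements in promoters of this kind. Capitals mark the letters GGCGCC, a palindrome that reads the same on both strands. Sequences are from RefSeq on the GRCr8 build, each printed 5′ to 3′ on the strand of its gene. Of the 8 members, 7 had an entry.
Id4, chr17:16598294-16598543, minus strand: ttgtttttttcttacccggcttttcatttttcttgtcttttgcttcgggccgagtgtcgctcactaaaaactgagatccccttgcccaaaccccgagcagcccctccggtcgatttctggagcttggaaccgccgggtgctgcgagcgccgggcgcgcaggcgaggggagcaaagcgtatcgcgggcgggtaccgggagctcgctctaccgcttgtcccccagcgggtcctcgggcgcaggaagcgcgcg
Smad7, chr18:71263258-71263507, plus strand: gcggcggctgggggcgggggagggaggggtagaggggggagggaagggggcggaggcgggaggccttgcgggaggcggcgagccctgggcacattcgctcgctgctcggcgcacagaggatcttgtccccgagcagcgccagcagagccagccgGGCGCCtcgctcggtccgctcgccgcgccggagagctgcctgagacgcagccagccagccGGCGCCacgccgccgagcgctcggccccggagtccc
Bambi, chr17:58821004-58821253, minus strand: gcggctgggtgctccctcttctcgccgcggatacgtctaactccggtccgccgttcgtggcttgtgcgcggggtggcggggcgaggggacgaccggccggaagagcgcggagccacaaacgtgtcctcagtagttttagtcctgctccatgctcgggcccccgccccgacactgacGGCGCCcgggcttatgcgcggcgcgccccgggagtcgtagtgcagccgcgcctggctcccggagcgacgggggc
GGCGCC begins 96 and 36 bases before the start of Smad7 and 74 bases before that of Bambi. It is not in the windows of Id1, Id2, Id3, Id4 or Bmpr1a. Of 33469 windows of this length, 8.69% hold it, a share not matched for base content. G and C make up 78.0% of the Smad7 window and 72.4% of the Bambi window, against 28.4% to 62.8% in the member windows without GGCGCC. The longer form, in which GTCT follows GGCGCC after 5 bases, was searched on both strands and is in 14 of these windows and in none of the members.

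The libraries held 99986348 and 66469907 unique molecular identifiers (UMIs, 1 per captured transcript) in 12033 barcodes of rat 1 and 8252 barcodes of rat 2. After the filters, 5988 and 2230 cells remained, and 28 barcodes occurred in both libraries, 4 of them among the retained cells. Clusters were named from marker genes, so each name below stands for cells like that type: crypt cells (1377 cells of rat 1 and 41 of rat 2), enterocytes cut into early, mid and mature bands of a villus score with equal cell numbers (1269 and 372 to 373 cells each), cycling secretory progenitors (186 and 18), goblet cells (164 and 135), enteroendocrine cells or EECs (21 and 11), tuft cells (18 and 128) and CFTR high expressers or CHEs (7 and 74). Every named class therefore rests mostly on 1 rat except goblet cells and EECs. A minimum of epithelial UMIs, given below, took 2 cells of rat 1 and 97 of rat 2 out of the named clusters. Without it the crypt class held 134 cells of rat 2 in place of 41, so its level in that rat rests on a minor part of its clusters. Within 0.1 of a cut between bands lay 254 and 498 enterocytes of rat 1 and 91 and 98 of rat 2, so the bands are ranges of a score and not cell types. No member entered the clustering or the villus score. Crypt cells of rat 2 carried more of the leukocyte gene Ptprc than those of rat 1 (48.5 against 1.72 CPM, the UMIs of a gene per 1000000 UMIs). Ptprc was also at 24.1 CPM in the CHEs of rat 2, with none in those of rat 1, and at 15.5 and 6.73 CPM in tuft cells and 11.1 and 0 CPM in EECs. In addition, mitochondrial transcripts made up 24.02% to 27.2% of UMIs in the enterocytes of rat 2 and 14.0% to 16.5% in those of rat 1. The part of Ptprc-positive cells or of mitochondrial share in the results was not tested. In bulk sums over cells, fewer cells that express a gene and less RNA of it per cell cannot be told apart, so shares of cells with a UMI are given beside the main levels. These shares are after thinning each cell to 5000 UMIs. Erythroid cells, which were removed as non-epithelial, had at most 11 UMIs of any Id gene in a rat and serve as the background for such shares. Intervals are 95% intervals and cover counting error only.

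Raw UMIs were summed per rat and class, and the 18 sums were compared in 1 edgeR model with 9980 genes, which included 7 of the 8 members. Smad6 was left out by the filter on low counts. At an adjusted p under 0.05, 1 member was called in each of 5 comparisons and none in 2. The same test called 44.5% of all genes between enterocytes and crypt cells, 3.91% between mature and early enterocytes, 0.441% between secretory progenitors and crypt cells, 6.48% for goblet cells, 6.64% for EECs, 5.63% for tuft cells and 4.99% for CHEs, the last 4 each against the mean of the other classes without secretory progenitors. The 5 calls were 1 of 7 members each, which in the comparison of enterocytes with crypt cells is below the share of all genes. The rats pair the sums, and with the rat as a block 4 members were called in EECs, 2 each in goblet cells and between mature and early enterocytes, and 1 each in tuft cells, CHEs, secretory progenitors and enterocytes against crypt cells. The blocked test called more of all genes too, namely 8.85% in EECs, 12.3% in goblet cells, 27.0% between mature and early enterocytes, 9.72% in tuft cells, 9.44% in CHEs, 1.18% in secretory progenitors and 55.9% between enterocytes and crypt cells. For mature against early enterocytes, 2 of 7 members is near that share.

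**Figure D1:**
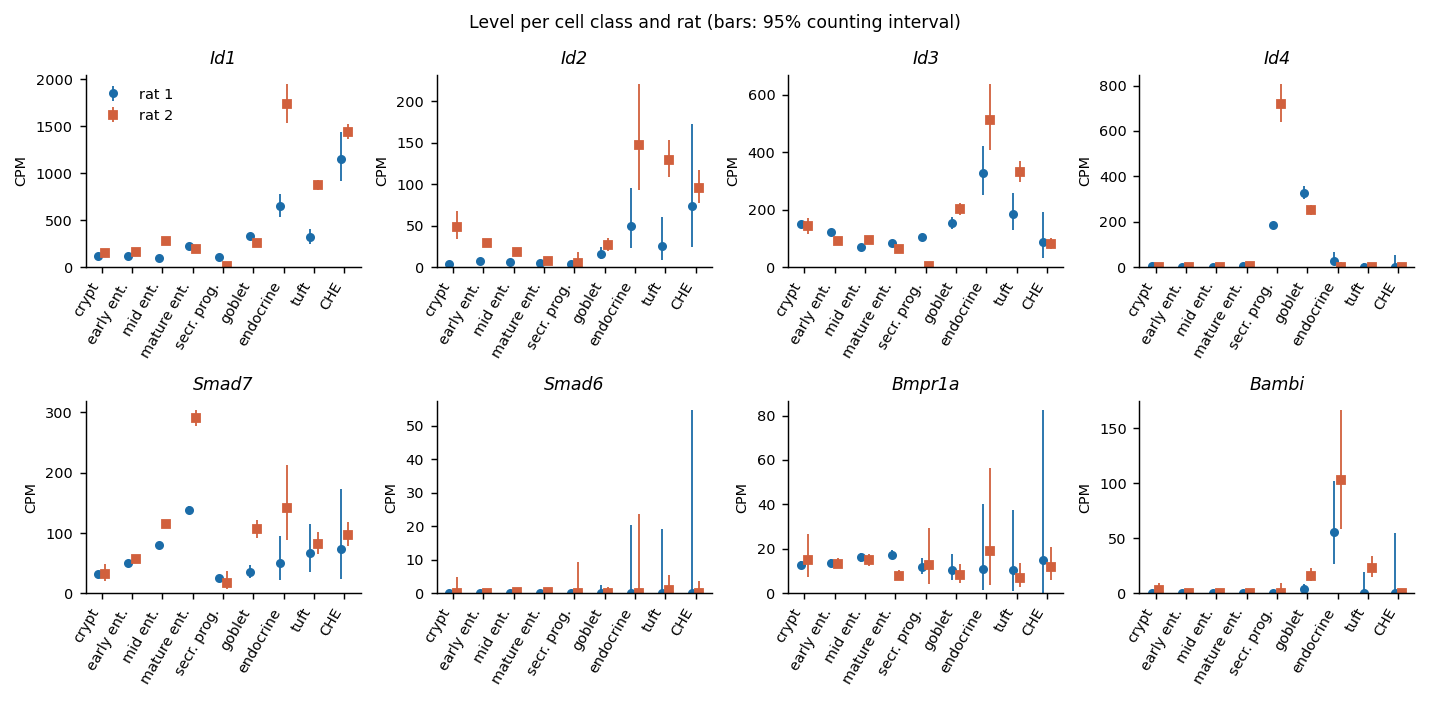
Level of each member in CPM (vertical axes, linear from 0, scaled per gene) in the 9 cell classes, with circles for rat 1, squares for rat 2 and bars for 95% counting intervals. Id1 was highest in CHEs, EECs and tuft cells, Id4 in secretory progenitors and goblet cells, Smad7 in mature enterocytes and Bambi in EECs, while Smad6 was at or near 0 throughout.

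Id4 was the member most restricted to 1 lineage. Goblet cells held 328 CPM in rat 1 against 249.8 CPM in rat 2. In secretory progenitors it was at 187 CPM and 719.6 CPM. Outside these classes its highest level was 27.8 CPM, on 5 UMIs in the EECs of rat 1, and every other sum was at or below 3.99 CPM. The ranges of the rats therefore did not overlap between the goblet lineage and any other class. Goblet cells exceeded early enterocytes 295-fold in rat 1 (interval 191 to 481) and 187-fold in rat 2 (interval 112 to 336). Crypt cells had 81 Id4 UMIs in rat 1 and none in rat 2, where a level of up to 4.04 CPM remains possible and secretory progenitors were at least 178-fold higher. The fitted log2 fold change of goblet cells against the other classes was 8.18 (SE 0.65, adjusted p = 4.5e-06, higher in 2 of 2 rats), and that of secretory progenitors against crypt cells was 7.14 (SE 1.03, adjusted p = 0.011, 2 of 2 rats). The latter fold rests on few crypt UMIs, and it was 5.37 in rat 1 alone and 10.66 in rat 2 alone. CHEs of both rats held no Id4 UMI, with limits of 44.4 CPM in rat 1 and 3.02 CPM in rat 2, and tuft cells held none in rat 1 and 2 UMIs in rat 2.

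After thinning, an Id4 UMI was found in 64.0% of goblet cells in rat 1 (interval 56.2% to 71.4%) and 38.5% in rat 2 (interval 30.3% to 47.3%). For secretory progenitors these shares were 48.4% and 83.3%. Without thinning they were 74.4% and 53.3% of goblet cells and 79.0% and 94.4% of secretory progenitors. In erythroid cells the share was 0% and 0.82%, and in early enterocytes 0.315% and 0.268%.

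The goblet class joined 2 clusters, and the Id genes divided between them. The cluster led by Clca1, Spink4 and Agr2 also carried Itln1 and defensin transcripts, which mark Paneth cells, and was drawn mostly from rat 1 (115 cells against 30). The cluster led by Zg16 and Fcgbp, genes of mature goblet cells, was drawn mostly from rat 2 (49 against 105). Mitochondrial transcripts made up 9.62% and 9.78% of UMIs in the Clca1-led cluster and 3.51% and 4.41% in the Zg16-led cluster, and their part in the differences below was not tested. Id4 stood at 406 and 575 CPM in the Clca1-led cluster and at 122 and 118 CPM in the Zg16-led cluster, so that the Clca1-led cluster was 3.32-fold higher in rat 1 (interval 2.46 to 4.57) and 4.86-fold higher in rat 2 (interval 4.02 to 5.90). Id1 ran the other way, with 129 and 96.5 CPM in the Clca1-led cluster and 867 and 325 CPM in the Zg16-led cluster, a ratio of 0.149 in rat 1 (interval 0.121 to 0.183) and 0.296 in rat 2 (interval 0.219 to 0.394). Id3 had ratios of 0.0894 and 0.190, Id2 of 0.135 and 0.263, and Smad7 of 0.121 and 0.0995. The Bambi UMIs of goblet cells, 5 in rat 1 and 31 in rat 2, were all in the Zg16-led cluster. The intervals of Id1, Id2, Id3, Id4 and Smad7 excluded 1 in both rats. In secretory progenitors Id1 and Smad7 were far below the Zg16-led cluster in both rats, at 106 and 7.57 CPM for Id1 and 25.7 and 17.7 CPM for Smad7. Their Id4 level of 187 CPM in rat 1 lay between those of the 2 clusters and their 719.6 CPM in rat 2 above both. In rat 2 they held 285 UMIs of Id4 against 3 of Id1 and 2 of Id3. Within a cluster, cells with an Id4 UMI were not set apart from cells with an Id1 UMI. In the Clca1-led cluster of rat 1, 20 cells had both, against 20.9 given by the product of the shares, and in the Zg16-led cluster of rat 2, 21 cells had both, against 15.7.

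**Figure D2:**
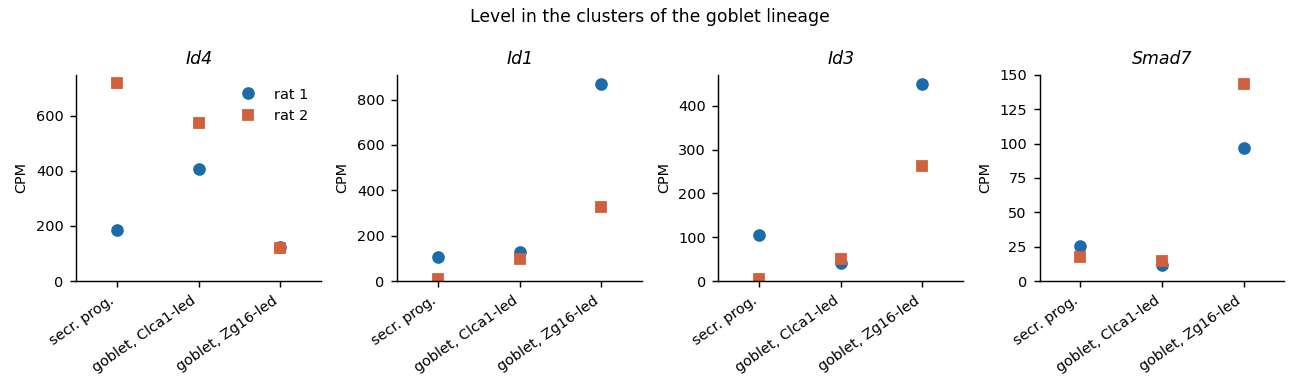
Level in CPM (vertical axes, linear from 0) of Id4, Id1, Id3 and Smad7 in secretory progenitors and in both clusters of the goblet class, with circles for rat 1 and squares for rat 2. Id4 was lower and Id1, Id3 and Smad7 were higher in the Zg16-led cluster than in the Clca1-led cluster of the same rat.

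By class, Id1 was highest in CHEs, EECs and tuft cells. CHEs were at 1155 CPM in rat 1, on 78 UMIs of 7 cells, and at 1440.4 CPM in rat 2. EECs were at 650.1 and 1732 CPM, and tuft cells at 316 and 872 CPM. Goblet cells followed at 334 and 259.6 CPM, and every sum of crypt cells, enterocytes and secretory progenitors lay between 7.57 and 280.0 CPM. The Zg16-led cluster of the goblet class, at 867 and 325 CPM, was above the EECs and tuft cells of rat 1 and below those of rat 2. Ranges of the rats overlapped between CHEs and EECs, between EECs and tuft cells and between tuft and goblet cells, so this order is not resolved step by step. Each of CHEs, EECs and tuft cells lay above crypt cells and above each enterocyte band in both rats. Within the mature band of rat 1, however, the top decile of the villus score held 363 CPM, above the tuft cells of that rat. The CHE level was 9.77-fold that of crypt cells in rat 1 (interval 7.70 to 12.2) and 9.63-fold in rat 2 (interval 7.94 to 11.8). Against mature enterocytes it was 5.06-fold (interval 3.99 to 6.33) and 7.63-fold (interval 7.05 to 8.25). Between CHEs and EECs the rats were on opposite sides, with ratios of 1.78 in rat 1 (interval 1.32 to 2.39) and 0.832 in rat 2 (interval 0.730 to 0.951). The fitted log2 fold change of CHEs against the other classes was 1.82 (SE 0.58, adjusted p = 0.096, higher in 2 of 2 rats) and that of EECs 1.72 (SE 0.59, adjusted p = 0.11, 2 of 2 rats), so neither passed. With the rat as a block both passed, at 1.80 for CHEs (adjusted p = 0.031) and 1.68 for EECs (adjusted p = 0.046). Each of these comparisons counts the other high classes among its references. For tuft cells the log2 fold change was 0.28 (SE 0.65, adjusted p = 0.93), with -0.47 in rat 1 alone and 0.65 in rat 2 alone.

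An Id1 UMI was present after thinning in 7 of 7 CHEs of rat 1 and in 91.9% of CHEs in rat 2 (interval 83.2% to 97.0%), against 54.8% and 43.4% of mature enterocytes, 36.7% and 43.9% of crypt cells and 0% and 2.05% of erythroid cells. Without thinning every CHE of both rats held one. EECs were at 57.1% and 90.9% and tuft cells at 50.0% and 80.5%.

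**Figure D3:**
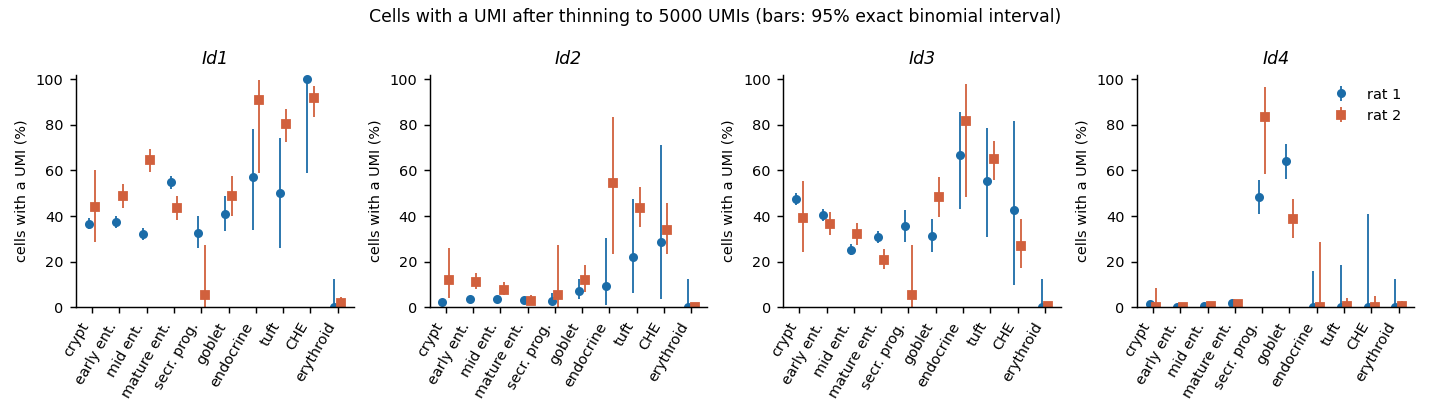
Percent of cells with at least 1 UMI of Id1, Id2, Id3 or Id4 after thinning to 5000 UMIs (vertical axes, 0 to 100%), for the 9 classes and for erythroid cells, with circles for rat 1, squares for rat 2 and bars for 95% exact binomial intervals. CHEs had the highest share for Id1, at 91.9% or more, but not for Id3, and erythroid cells were at or near 0 for each gene.

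By class, Id3 shared the EEC and tuft maxima of Id1 and not its CHE maximum. EECs were at 328 and 513 CPM, tuft cells at 187 and 331 CPM, goblet cells at 154 and 202 CPM and crypt cells at 151 and 141 CPM. The Zg16-led goblet cluster held Id3 at 449 and 263 CPM, above EECs and tuft cells in rat 1 and below both in rat 2. CHEs were at 88.8 and 80.4 CPM, within the range of 63.1 to 122 CPM of enterocytes. The CHE to EEC ratio of Id3 was 0.271 in rat 1 (interval 0.0956 to 0.626) and 0.157 in rat 2 (interval 0.114 to 0.216), while for Id1 it was above 1 in rat 1 and below 1 in rat 2, as given above. Against tuft cells the CHE ratio was 0.476 in rat 1 (interval 0.164 to 1.14), which includes 1, and 0.243 in rat 2 (interval 0.188 to 0.311). The fitted log2 fold changes did not pass, at 1.60 for EECs (SE 0.53, adjusted p = 0.099, higher in 2 of 2 rats), 0.47 for tuft cells (adjusted p = 0.78) and -1.27 for CHEs (SE 0.68, adjusted p = 0.32, lower in 2 of 2 rats). The EEC value passed with the rat as a block (1.59, adjusted p = 0.048).

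Id2 was sparse outside the same classes. EECs were at 50.0 and 147.5 CPM on 9 and 23 UMIs, CHEs at 74.0 and 95.5 CPM on 5 and 95 UMIs, and tuft cells at 25.9 and 129.8 CPM on 5 and 135 UMIs. Enterocytes lay between 5.32 and 29.4 CPM and secretory progenitors at 3.95 and 5.05 CPM. The Zg16-led goblet cluster was at 43.4 and 33.9 CPM, in rat 1 above the tuft cells. Crypt cells differed between the rats, with 4.14 CPM in rat 1 against 48.5 CPM in rat 2, and 32 of the 36 Id2 UMIs of the crypt cells of rat 2 came from 16 cells of 1 cycling cluster. Ptprc was at 48.5 CPM in the crypt cells of rat 2, and leukocytes of that rat, which were removed, held Id2 at 175 CPM. Whether the same crypt cells held both genes was not tested, nor was the cause of the difference between the rats. Log2 fold changes of 1.51 in EECs (SE 0.81, adjusted p = 0.36), 1.30 in CHEs (SE 0.78, adjusted p = 0.37) and 0.99 in tuft cells (SE 0.74, adjusted p = 0.56) did not pass, although all were above 0 in 2 of 2 rats. With the rat as a block the EEC value passed (1.65, adjusted p = 0.039). The log2 fold change of enterocytes against crypt cells was -0.25 (adjusted p = 0.84), and it turned to 0.91 (adjusted p = 0.42) when crypt cells with a Ptprc UMI were left out, a setting chosen after the values were seen. With non-epithelial cells kept, Id2 was called lower in enterocytes, and there the crypt class of rat 2 held 134 cells in place of 41.

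Smad7, whose product recruits ubiquitin ligases to the receptors, was the member called along the villus axis. From crypt cells through early, mid and mature enterocytes it stood at 32.7, 50.2, 80.4 and 138 CPM in rat 1 and at 32.3, 57.8, 115 and 291 CPM in rat 2, so each step was upward in both rats. Mature enterocytes exceeded early enterocytes 2.75-fold in rat 1 (interval 2.55 to 2.98) and 5.03-fold in rat 2 (interval 4.59 to 5.51), and exceeded crypt cells 4.23-fold (interval 3.87 to 4.62) and 8.99-fold (interval 6.02 to 14.1). Mature enterocytes had the highest level of all classes and their range did not overlap that of mid enterocytes, the next by mean, but did overlap that of EECs, which was 50.0 to 141 CPM. The fitted log2 fold change was 2.39 for enterocytes against crypt cells (SE 0.62, adjusted p = 0.0067, higher in 2 of 2 rats) and 2.92 for mature against early enterocytes (SE 0.69, adjusted p = 0.039, 2 of 2 rats). These fits use scaled library sizes, and on library size alone the median of all genes moved from 0 to -0.77 in the latter comparison and from -0.35 to -0.99 in the former, with Smad7 at 1.99 (adjusted p = 0.041) and 1.67 (adjusted p = 0.014). The latter call was lost with cells under the minimum of epithelial UMIs kept (2.92, adjusted p = 0.057) and with a villus score without apolipoproteins (2.84, adjusted p = 0.058). The villus score was higher in rat 2, with a median of 3.37 in its mature band against 2.65 in that of rat 1. On bins of 0.5 of the score itself, a scale chosen after the bands were seen, the rats were close at the highest scores and less so below. At scores from 1.5 to 2 Smad7 was at 69.1 CPM in rat 1 against 49.9 CPM in rat 2, the widest relative gap of the shared bins. At scores from 2 to 2.5 Smad7 was at 86.5 CPM in rat 1 against 74.3 CPM in rat 2, from 3 to 3.5 at 247 and 247 CPM, and from 3.5 to 4 at 350.5 CPM, on 103 UMIs, and 382 CPM. A Smad7 UMI was found after thinning in 22.1% and 25.2% of early and in 44.8% and 71.0% of mature enterocytes, against 3.57% and 2.87% of erythroid cells.

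Id1 and Id3 did not rise with Smad7 over the whole of that axis. In rat 1 Id1 lay between 96.6 and 149 CPM in the first 8 deciles of the villus score. It then rose, as Smad7 did, to 222 CPM in the ninth and 363 CPM in the tenth. In rat 2 it went from 131 CPM in the first decile to 322 CPM in the seventh and then to 109 CPM in the tenth. On bins of the score itself both rats had a peak below the top, of 370.5 CPM at scores from 3 to 3.5 in rat 1 and of 300.0 CPM at scores from 2.5 to 3 in rat 2. From 3.5 to 4 the levels were 262 CPM in rat 1, on 77 UMIs of 26 cells, and 94.5 CPM in rat 2, on 153 UMIs of 99 cells. Id3 went from 147 CPM at scores below 0.5 to 64.0 CPM at scores from 2 to 2.5 in rat 1 and was back at 106 CPM from 3 to 3.5. In rat 2 it went from 126 CPM at scores from 1 to 1.5 through 75.4 CPM from 2 to 2.5 and 99.4 CPM from 2.5 to 3 to 35.8 CPM from 3.5 to 4. Between mature and early enterocytes neither gene passed the test, with a log2 fold change of 1.38 for Id1 (SE 0.87, adjusted p = 0.33) and 0.30 for Id3 (SE 0.75, adjusted p = 0.84). Without scaled library sizes that of Id3 was -0.52, and its CPM was lower in the mature band in both rats, with ratios of 0.702 and 0.694. Id2 went from 32.1 CPM in the first decile to 3.83 CPM in the tenth in rat 2 and stayed between 4.06 and 10.4 CPM in rat 1. Id4 in enterocytes had 97 UMIs in rat 1 and 40 in rat 2, with a log2 fold change between mature and early bands of 2.24 (SE 0.86, adjusted p = 0.12) that passed with the rat as a block (2.25, adjusted p = 0.032). Mitochondrial shares of the score bins ran from 22.2% to 28.0% in rat 2 and from 10.4% to 16.3% in rat 1.

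**Figure D4:**
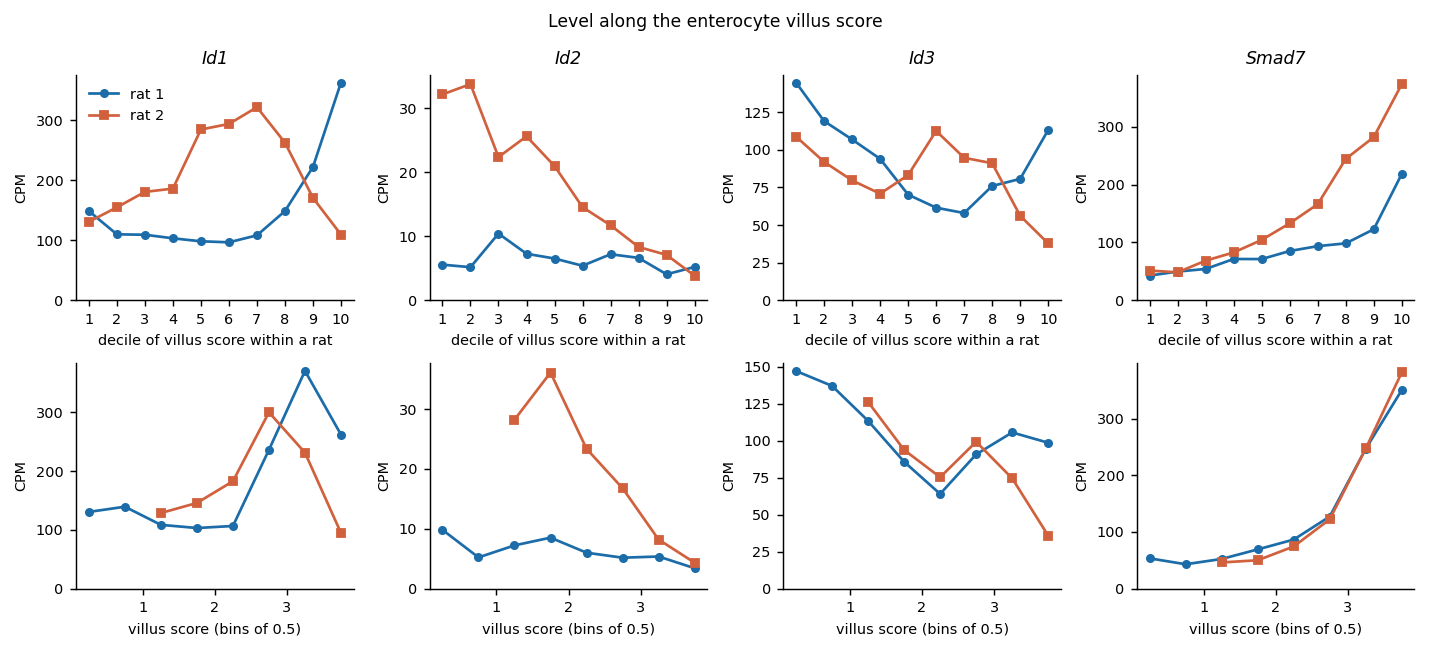
Level in CPM (vertical axes, linear from 0) of Id1, Id2, Id3 and Smad7 in enterocytes, by decile of the villus score within each rat (upper row) and by bins of 0.5 of the score on 1 scale for both rats (lower row), with circles for rat 1 and squares for rat 2. Smad7 rose in both rats and was alike in both at scores from 2.5 to 3.5 on the common scale, reaching 350.5 and 382 CPM, whereas Id1 peaked below the highest bin. That bin rests on 77 Id1 UMIs in rat 1 and 153 in rat 2.

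Smad6, the other inhibitory Smad, was close to undetectable. It had 4 UMIs in the cells of rat 1 and 10 in those of rat 2 over all 9 classes, and all but 1, in a tuft cell of rat 2, were in enterocytes. Goblet cells held none, with limits of 2.12 and 1.54 CPM. In CHEs and EECs the limits of 44.4 and 16.7 CPM in rat 1 were too high to show whether it was lower there.

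Bmpr1a, which phosphorylates the Smads of this pathway, was low and even. Its 18 sums ranged from 6.73 CPM in the tuft cells of rat 2 to 19.2 CPM in the EECs of that rat, and 7 of the 8 neighbouring classes in the order of levels overlapped. Log2 fold changes were 0.65 for enterocytes against crypt cells (SE 0.34, adjusted p = 0.13) and 0.64 for mature against early enterocytes (SE 0.38, adjusted p = 0.29). The former was called with non-epithelial cells kept, where 4791 of 10163 genes were called. In the CPM of the bands the rats went opposite ways, from 13.5 to 17.2 CPM in rat 1 and from 13.4 to 8.03 CPM in rat 2, and on library size alone the latter log2 fold change was -0.08.

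Bambi was highest in EECs, with 55.6 CPM in rat 1 against 103 CPM in rat 2. These levels rest on 10 and 16 UMIs, and the 10 of rat 1 came from 2 of its 21 EECs, while 7 of 11 EECs of rat 2 held one. Tuft cells had none in rat 1, which allows up to 15.5 CPM, and 23.1 CPM in rat 2. Goblet cells were at 3.54 and 15.9 CPM, every other class was at or below 2.69 CPM, and CHEs held none in either rat. The log2 fold change of EECs against the other classes was 7.09 (SE 1.17, adjusted p = 0.0028, higher in 2 of 2 rats). Against goblet cells EECs were 15.7-fold higher in rat 1 (interval 4.89 to 58.6) and 6.44-fold higher in rat 2 (interval 3.29 to 12.1). The values for goblet cells (3.91, SE 1.24, adjusted p = 0.096) and tuft cells (3.98, SE 1.31, adjusted p = 0.12) did not pass. Both passed with the rat as a block (3.74, adjusted p = 0.013, and 3.52, adjusted p = 0.046), and both passed with crypt cells that held a Ptprc UMI left out (4.59, adjusted p = 0.028, and 4.67, adjusted p = 0.037).

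**Figure D5:**
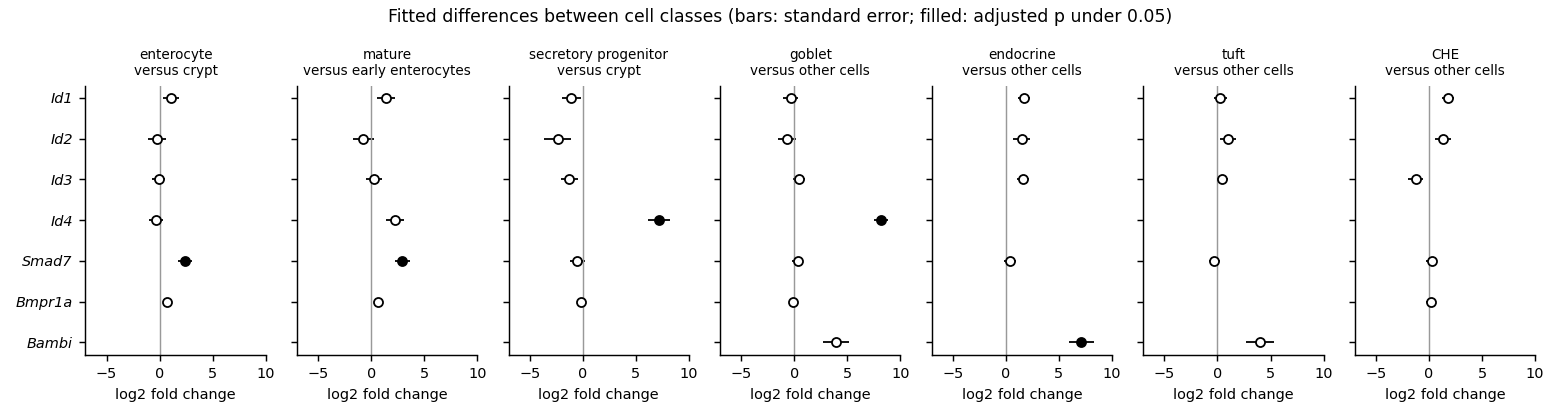
Fitted log2 fold change (horizontal axes) of 7 members in the 7 comparisons, with bars for standard errors, filled circles for an adjusted p under 0.05 and open circles otherwise; values resting on at most 10 UMIs in the classes compared are left out. The filled circles are Smad7 in both enterocyte comparisons, Id4 in secretory progenitors and goblet cells, and Bambi in EECs.

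Across the 18 sums, the genes most like Id4 were Lrrc31 (Pearson r = 0.91), Htra1 (0.90) and Atoh1 (0.90), the last being the bHLH factor of the secretory lineage. Those most like Id1 were Phf21a (0.94), Dusp8 (0.91) and Gabarapl2 (0.87), those most like Id3 were Dmxl1 (0.89), Mtmr6 (0.88) and Rai1 (0.85), and those most like Id2 were Lgals3bp (0.85), Btc (0.83) and Gnai2 (0.83). Smad7 was most like Ptk2b (0.96), Arhgef16 (0.95) and Igsf23 (0.93), and Bambi was most like Ift81 (0.91), Rab3b (0.91) and Lyc2 (0.89). Among members, Id1 correlated with Id2 at 0.79 and with Id3 at 0.77, while its correlation with Id4 was -0.45. The sums share 2 libraries and differ in depth, so these values are descriptions. In single cells, thinned Id1 and Id3 UMIs correlated at 0.63 over 164 goblet cells of rat 1 and 0.37 over 135 of rat 2, a class that spans both clusters above, and at 0.43 over 128 tuft cells of rat 2. In the crypt cells and enterocytes of rat 1 the values were 0.15 to 0.20, where counts are sparse. The cells of a class share 1 library per rat.

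Of 69 other genes of the pathway, 34 passed the filter on low counts. Between enterocytes and crypt cells 5 were called higher and 10 lower, with a median log2 fold change of -0.09 against -0.35 over all genes tested. Goblet cells had 5 higher, EECs 3, and tuft cells, CHEs, secretory progenitors and mature enterocytes 1 each, and none was called lower in these comparisons. The medians of the 34 genes were 0.47 in goblet cells, 0.01 in EECs, 0.06 in tuft cells, -0.50 in CHEs, 0.01 in secretory progenitors and 0.65 in mature enterocytes, against 0.17, -0.05, 0.24, -0.25, -0.06 and 0 over all genes.

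Among ligands, Bmp2 was at 53.8 and 197 CPM in goblet cells and was called higher there (log2 fold change 4.04, SE 0.98, adjusted p = 0.022). EECs, where it was not called, held Bmp2 at 66.7 and 89.8 CPM, above goblet cells in rat 1. Bmp7 was also called in goblet cells (5.31, SE 1.15, adjusted p = 0.014) at 12.7 and 6.68 CPM, but not with the upper limit on genes removed (adjusted p = 0.15). Secretory progenitors, which are not in that comparison, held Bmp7 at 11.3 and 10.1 CPM, while EECs and CHEs held no UMI of it. Bmp2 differed widely between the enterocytes of the rats, from 0.529 to 9.36 CPM over the bands of rat 1 and from 20.6 to 43.7 CPM over those of rat 2. Its call against crypt cells (4.91, SE 1.78, adjusted p = 0.038), at 1.06 in rat 1 alone and 7.13 in rat 2 alone, was lost with at most 20% mitochondrial transcripts (adjusted p = 0.094), in merged data (adjusted p = 0.060) and with doublets removed (adjusted p = 0.056). Of the extracellular antagonists, Fst, which encodes follistatin, had 2 and 17 UMIs in EECs and 2 in all other sums together, and its call (adjusted p = 0.0018) was not made by DESeq2 (adjusted p = 0.34). Chrd, which encodes chordin, was called in EECs (4.35, SE 1.02, adjusted p = 0.019) on 4 and 2 UMIs, but not with at most 20% mitochondrial transcripts (adjusted p = 0.16), and in goblet cells (3.40, SE 0.79, adjusted p = 0.018). Smoc2, a matricellular gene of crypt cells, fell by 4.82 on the log2 scale from crypt cells to enterocytes (SE 0.48, adjusted p = 2.0e-05), from 100.1 and 95.7 CPM to at most 7.89 CPM.

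Tcf3 fell from 71.5 and 64.7 CPM in crypt cells to 4.36 and 0.491 CPM in mature enterocytes (log2 fold change of enterocytes -3.04, SE 0.51, adjusted p = 0.00037). Tcf4 was called higher in tuft cells (4.64, SE 0.56, adjusted p = 0.00024), at 51.8 and 133 CPM. Atoh1 stood beside Id4 in the goblet lineage, at 392 and 359 CPM in goblet cells (8.70, SE 0.61, adjusted p = 1.4e-06) and at 139.9 and 361 CPM in secretory progenitors (4.23 against crypt cells, SE 0.83, adjusted p = 0.048). The call in secretory progenitors was lost in 4 settings with adjusted p from 0.051 to 0.13.

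In the TGF-β arm, Tgfb1 was called higher in CHEs (4.68, SE 0.68, adjusted p = 0.00080) at 178 and 167 CPM and in EECs (3.43, SE 0.82, adjusted p = 0.020) at 55.6 and 103 CPM, the latter call being lost in 3 settings with adjusted p from 0.069 to 0.16. It was also called lower in enterocytes than in crypt cells (-3.88, SE 0.96, adjusted p = 0.0050), at -0.45 in rat 1 alone and -4.07 in rat 2 alone, which was lost when crypt cells with a Ptprc UMI were left out (-1.93, adjusted p = 0.14). Tgif1, which encodes a corepressor of Smads, fell by 4.95 on the log2 scale from crypt cells to enterocytes (SE 0.48, adjusted p = 2.4e-05). It was also called higher in goblet cells (3.14, SE 0.85, adjusted p = 0.042), a call that was lost in 4 settings with adjusted p from 0.10 to 0.39. Its goblet level of 9.20 and 10.3 CPM was below that of crypt cells, at 32.6 and 26.9 CPM. Secretory progenitors, at 26.6 and 35.3 CPM, were above goblet cells too. The goblet call is against a mean of classes that includes EECs, which held no Tgif1 UMI, and CHEs, at 0 and 1.01 CPM. Skil, whose product SnoN binds Smads, was the only one of the 34 genes called between mature and early enterocytes (2.68, SE 0.68, adjusted p = 0.045), rising from 19.8 to 39.9 CPM in rat 1 and from 12.9 to 69.5 CPM in rat 2, and its call was lost in 4 settings with adjusted p from 0.052 to 0.066.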

How the data were processed

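Single-cell RNA-seq of 2 jejunal epithelium samples, 1 per rat, was analysed from the raw UMI counts per gene and barcode that the authors deposited. Per the file headers the matrices were made with Cell Ranger 3.1.0 (rat 1) and 5.0.1 (rat 2), on the build rn6 per the submitters' processing notes, so library, rat and software version cannot be told apart. Both samples are in 1 group, nothing else is in the matrices, and p-values rest only on the spread between 2 rats within classes. The model pools this spread over the classes, and without the block it treats the sums of 1 animal as independent.

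Barcodes with more than 5000 UMIs, more than 200 and fewer than 5800 genes and at most 40% mitochondrial UMIs were kept, and cells with 10 or fewer UMIs of epithelial keratins and Epcam were removed. Cells were integrated and clustered with Seurat 5.3.0 (2000 variable genes, 20 principal components, resolution 0.3 and then 0.5), with the members and the pathway lists left out of the variable genes. Clusters were named from marker lists, with name levels set after the clusters were seen, and leukocyte and erythroid clusters were removed. Clusters with markers of more than 1 type, 111 cells of rat 1 and 49 of rat 2, stayed unnamed and entered no class. Of these, 82 and 33 cells formed a cluster led by goblet genes such as Zg16 and Fcgbp that also carried enterocyte markers. Scrublet (scanpy 1.11.5) marked 1.94% of the cells of rat 1 and 0.0897% of those of rat 2 as doublets. The latter share is too low for the caller to have worked, and doublets were kept in the main analysis.

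Counts were summed per rat and class (18 sums of 67531 to 20308574 UMIs) and tested with edgeR 4.0.16 (quasi-likelihood, TMM scaling, filterByExpr, classes as the only term), with Benjamini-Hochberg adjustment over the 9980 genes tested and a threshold of 0.05. The method was run on simulated sums in which 200 genes had a log2 change of 3. It recovered 190 of them for goblet cells, 166 for CHEs and 115 for mature against early enterocytes, with 17, 6 and 11 false calls. The simulated sums were drawn independently with no difference between rats, unlike the paired sums here. Sums of the same animal pair by design, and their deviations from the class means correlated over 36 pairs of classes with a median r of 0.25 (0.073 to 0.72), so blocked values are given where they change a call. Ratios of UMIs within a rat have exact 95% intervals, shares of cells have Clopper-Pearson intervals, a count of 0 is given the limit of 3 counts, and all of these cover counting error only. Genes of the pathway are named where they were called with the same direction in both rats, at most the 5 with the largest change per comparison. Genes most like a member are the 3 with the highest Pearson r of log2 CPM (prior count 2), for members with at least 20 CPM in a class of both rats.

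The members and lists were chosen with earlier results of these data known. Alternatives were DESeq2 1.42.0, no low-count filter, library size alone, mitochondrial genes left out, the rat as a block, at most 20% mitochondrial UMIs, no integration, resolution 1.0, doublets removed, non-epithelial cells kept, 3 other ways to cut the bands, and each rat left out. Non-epithelial cells kept means that the minimum of epithelial UMIs was dropped, while leukocyte and erythroid clusters stayed out. The removal of the upper limit on genes and of crypt cells with a Ptprc UMI was added after seeing the data. Promoters are RefSeq windows on GRCr8, a build other than that of the counts, and are shown for the 3 members called, an extension chosen after the values were seen.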

Additional observations from a re-analysis of the deposited data

Results flagged for a closer look

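Clusters with leukocyte markers were removed before every comparison, and 5 members were above the limit of a count of 0 there in both rats (0.696 CPM in rat 1 and 0.979 CPM in rat 2). In rat 1 and rat 2 respectively, Id1 stood at 125 and 104 CPM, Id2 at 16.2 and 175 CPM, Id3 at 95.5 and 50.9 CPM, Smad7 at 90.2 and 128 CPM, and Bmpr1a at 16.2 and 5.88 CPM. Ptprc, which marks leukocytes, was at 39.2 CPM in rat 1 against 473 CPM in rat 2. The median villus score of these cells was 1.87 in rat 1, between those of early and mid enterocytes of that rat, and 0.638 in rat 2.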

How the results depend on the processing

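Over 26 fitted values of members, 333 of 382 alternatives counted as the same, and over 17 values of other pathway genes 209 of 241 did. For alternatives with a test, this means that the direction and the side of the threshold were kept. Each rat alone gives no test, since no residual degrees of freedom remain. There it means the same direction and a distance from the reported value of at most its SE times the square root of 2. The number of members called went from 1 to 3 between enterocytes and crypt cells with non-epithelial cells kept, with Bmpr1a called higher and Id2 lower beside Smad7. Between mature and early enterocytes it went from 1 to 2 with no low-count filter and with the replicate block, and to 0 with non-epithelial cells kept and with a villus score without apolipoproteins. In goblet cells it went from 1 to 2 with no low-count filter, with the replicate block and without crypt cells that held a Ptprc UMI, and to 4 with no upper limit on genes, where the class held other cells, 48 and 106 in place of 164 and 135, while secretory progenitors went from 186 and 18 to 325 and 47. In EECs it went from 1 to 2 with DESeq2, to 3 with no low-count filter and to 4 with the replicate block. In tuft cells it went from 0 to 1 with no low-count filter, with the replicate block and without crypt cells that held a Ptprc UMI. In CHEs it went from 0 to 1 with DESeq2, with the replicate block and with no upper limit on genes, and to 3 with no low-count filter. The replicate block changed no other call of a member beyond those given in the report.

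Values that turned sign were all short of the threshold. Id2 between enterocytes and crypt cells (-0.25) was 0.057 with no low-count filter, 0.10 with the replicate block, 0.27 with at most 20% mitochondrial UMIs, 0.42 merged without integration, 0.91 without crypt cells that held a Ptprc UMI, and -0.64 to 0.91 with 1 rat left out. Id3 there (-0.11) was 0.16 with no low-count filter, with at most 20% mitochondrial UMIs and with no upper limit on genes, 0.19 merged, 0.14 with non-epithelial cells kept, and -0.37 to 0.16 with 1 rat left out. Id1 was -0.22 in tuft cells and 0.97 in goblet cells (-0.35 as reported) with no upper limit on genes, the latter over that changed goblet class. With 1 rat left out it was -0.47 to 0.65 in tuft cells and -0.78 to 0.30 in goblet cells, Bambi in tuft cells was -2.25 to 2.40, Id3 in tuft cells -0.013 to 0.78, and Id2 between mature and early enterocytes -0.99 to 0.21. On library size alone Id3 and Bmpr1a between mature and early enterocytes were -0.52 and -0.084. With 1 rat left out, Id4 in goblet cells ranged from 7.48 to 8.77, Bambi in EECs from 5.06 to 6.67, and Smad7 from 1.70 to 2.89 against crypt cells and from 2.13 to 3.28 between bands. The cause was not tested.

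Counts over all genes moved most between mature and early enterocytes (390), to 1238 with DESeq2, 1602 with no low-count filter, 1234 on library size alone, 2691 with the replicate block, 839 with at most 20% mitochondrial UMIs, 770 merged, 1230 with bands over both rats, 184 with no upper limit on genes, 122 with non-epithelial cells kept and 86 without apolipoproteins. For secretory progenitors (44) they were 118 with DESeq2 and with the replicate block, 179 with no filter, 22 merged and 72 with no upper limit on genes. With no filter and with the replicate block they were 1125 and 1226 in goblet cells (647), 930 and 970 in tuft cells (562) and 1014 and 942 in CHEs (498). With no filter EECs had 1307 (663), and with no upper limit on genes goblet cells had 1210. On library size alone the higher and lower calls were 874 and 4250 between enterocytes and crypt cells (1438 and 3006), 168 and 1066 between bands (202 and 188) and 404 and 52 in CHEs (387 and 111). With DESeq2 they were 549 and 176 in goblet cells (587 and 60) and 407 and 122 in tuft cells (508 and 54). Depth limits the CHEs of rat 1 most, where 1 UMI is worth 14.8 CPM, followed by the EECs of rat 2 (6.41 CPM) and the EECs (5.56 CPM) and tuft cells (5.18 CPM) of rat 1.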
